A study of Mus musculus with 6 samples.

Results

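The transcriptome of the control mouse heart at embryonic stage E13.5 was described from 16407 genes, those with at least 10 counts in each of 3 control hearts, out of 46983 genes listed in the deposited tables. The series compared whole hearts of control embryos with hearts in which Wt1 was deleted by a Cre recombinase driven by Tnnt2, with 3 hearts of each kind, and only the controls are described here. The controls carry the label wild type and the numbers 2, 3 and 5, and are called control hearts 2, 3 and 5. By the study's methods they had no Cre but carried floxed Wt1 alleles on both chromosomes, so no animal without floxed alleles was measured. All embryos were C57BL/6 x DBA/2 crosses of stage E13.5, and 1 whole heart made 1 library, which gives separate animals but only 3 of them. A further restriction to genes with at least 10 counts in all 6 hearts of the series would have kept 15865 genes.

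The heart at this stage is a beating, septating organ in which the myocardium of the chambers is still proliferating, the endocardial cushions are being remodelled into valves and septa, and the epicardium has covered the surface and releases mesenchymal cells that form fibroblasts and mural cells. Circulating blood, largely made of primitive red cells at first and of cells from the fetal liver later, fills the chambers. In RNA from a whole organ a lower level of a marker can mean fewer cells of that type or less RNA per cell, and these cannot be told apart here.

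Between 44244665 (control heart 5) and 56373393 (control heart 3) counts were assigned to genes in each heart, and the described genes held 99.8% to 99.9% of them. Protein-coding genes made up 14217 of the 16407 genes, and 782 were processed pseudogenes, 355 long intergenic RNAs and 339 antisense RNAs. These 14217 were out of 21560 protein-coding genes listed. The gene lists used below were chosen with earlier results of these data known, so full detection of a list is not a test. Rank correlations of the levels across the 16407 genes were 0.993 between hearts 2 and 3, 0.981 between hearts 2 and 5 and 0.983 between hearts 3 and 5. Heart 5 stood apart from the others across all genes, and heart 3 in a few gene groups. Heart 5 had more globin and ribosomal protein RNA and less RNA from long genes, and heart 3 carried RNA of liver and skeletal muscle genes. Heart 2 differed from both in its sex-linked genes, with Xist, the RNA that silences 1 X chromosome in female cells, at 80.3 TPM against 0.047 in heart 3 and 0.0044 in heart 5. The 4 Y-linked genes of the list were at 0 counts in heart 2, while Ddx3y, an RNA helicase gene on the Y chromosome, was at 36.7 and 32.4 TPM in hearts 3 and 5.

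Levels are given as TPM, a transcript share corrected for length and obtained by rescaling the deposited FPKM of each heart to the same total. Their length term was close to the mean length of all annotated transcripts of a gene, so a gene with many short transcript models reads high. Levels per longest annotated transcript are therefore given where they change an order. Comparisons of 1 gene between hearts rest instead on counts over library size (CPM) scaled by trimmed means. This is because the median log2 ratio of heart 5 to heart 2 was -0.24 on the TPM scale and 0.01 on the CPM scale. Sums of gene lists are given as TPM, and their spread between hearts depended on the scale. With scaling by trimmed means the SD was 2007 against 380 for the ventricular list, and 1011 against 3939 for the cardiomyocyte list. A difference of a list sum between hearts can therefore be one of scale.

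A small number of genes made up much of the RNA. The 10 highest genes held 11.3%, 12.2% and 14.8% of the TPM in hearts 2, 3 and 5 (mean 12.8% ± 1.82, SD, n = 3). The 100 highest held 31.6% ± 3.50 and the 1000 highest 63.8% ± 3.21 (SD, n = 3). Of the TPM, 50% was held by 472, 442 and 285 genes in hearts 2, 3 and 5. At the other end, 13373 of the 16407 genes reached 1 TPM in each heart, 8285 reached 10 TPM, 1368 reached 100 TPM and 98 reached 1000 TPM.

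**Figure D1:**
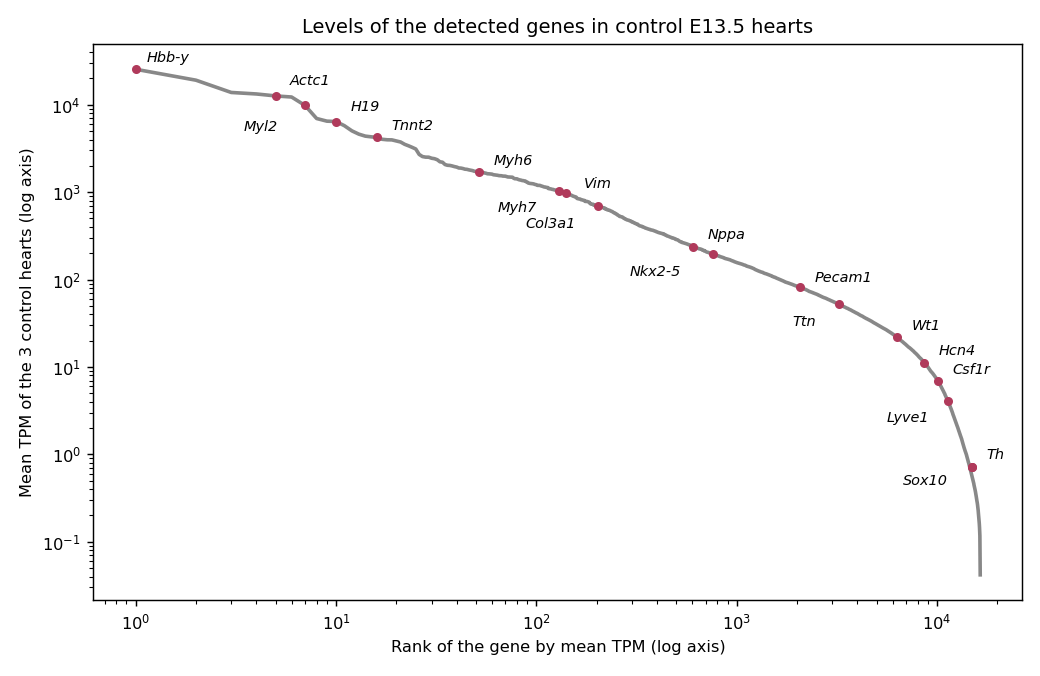
Mean TPM of the 3 control hearts (vertical log axis) against the rank of each of the 16407 genes (horizontal log axis), with 19 genes marked. The curve runs from Hbb-y at 25472 TPM to genes below 1 TPM, and the contractile genes sit at its upper end, while Wt1 is at rank 6287.

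The highest gene was Hbb-y, the embryonic beta-type globin of primitive red cells, with 19955, 19859 and 36602 TPM in hearts 2, 3 and 5. It lies on chromosome 7 from 103851749 to 103853216 (GRCm38). The second was a 57-base gene model annotated as a miRNA, Gm23935, whose 34388 to 55081 counts per heart are divided by this short length, so that its level is uncertain. Eef1a1, a translation elongation factor, followed with 12170, 13320 and 15978 TPM, and mt-Co1, a subunit of cytochrome c oxidase encoded in the mitochondrial genome, with 13842, 13281 and 12740 TPM.

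Among the other genes in the highest 25, 6 encode contractile proteins of the heart. Actc1, the cardiac alpha-actin, was the first of them, at 13748, 14256 and 9853 TPM. Myl2, the regulatory light chain of ventricular myosin, had 9726, 9732 and 10026 TPM. Myl3, Tnnt2, Myl4 and Myl7 had means of 5028, 4233, 3748 and 3254 TPM.

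A further 4 genes of the highest 25 encode ribosomal proteins (Rps14, Rplp1, Rplp0 and Rpl41), and 3 more from the mitochondrial genome (mt-Nd1, mt-Cytb and mt-Nd2). The imprinted neighbours H19 and Igf2 on chromosome 7 ranked 10 and 13. H19, a long non-coding RNA expressed from the maternal allele, lies from 142575529 to 142578143 and had 7754, 6445 and 5074 TPM. Igf2, a fetal growth factor expressed from the paternal allele, lies from 142650766 to 142666816 and had 5570, 4734 and 3526 TPM. Both were highest in heart 2 and lowest in heart 5. As a class, 84 cytosolic ribosomal protein genes summed to 9.65% ± 2.23 of the TPM and 16 genes of the mitochondrial genome to 3.89% ± 0.14 (SD, n = 3).

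The start regions of 4 genes are shown: the highest gene, the highest actin, the cardiac troponin T whose promoter drives the Cre of this series, and the atrial natriuretic peptide gene. For Tnnt2 the first of 2 listed windows is given. Each window holds 250 bases before and 50 bases after the start site in RefSeq (GRCm38.p6), written along the strand of the gene, with capitals for matches to TATAAA, to the CArG box bound by serum response factor, and to AGATAA, a form of the GATA site, searched on both strands. Hbb-y is at chr7:103853158-103853457 on the minus strand, Actc1 at chr2:114052826-114053125 on the minus strand, Tnnt2 at chr1:135836084-135836383 on the plus strand and Nppa at chr4:148000472-148000771 on the plus strand.
Hbb-y: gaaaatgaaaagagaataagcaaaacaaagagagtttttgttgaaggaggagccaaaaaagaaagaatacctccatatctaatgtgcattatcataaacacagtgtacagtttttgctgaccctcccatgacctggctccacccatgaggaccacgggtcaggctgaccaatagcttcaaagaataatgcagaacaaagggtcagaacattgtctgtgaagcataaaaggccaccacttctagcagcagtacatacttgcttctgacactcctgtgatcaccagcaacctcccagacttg
Actc1: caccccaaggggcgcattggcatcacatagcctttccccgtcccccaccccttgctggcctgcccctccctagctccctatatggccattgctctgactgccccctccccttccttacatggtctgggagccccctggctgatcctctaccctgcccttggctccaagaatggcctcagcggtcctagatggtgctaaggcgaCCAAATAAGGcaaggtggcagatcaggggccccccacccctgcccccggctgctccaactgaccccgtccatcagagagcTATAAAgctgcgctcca
Tnnt2: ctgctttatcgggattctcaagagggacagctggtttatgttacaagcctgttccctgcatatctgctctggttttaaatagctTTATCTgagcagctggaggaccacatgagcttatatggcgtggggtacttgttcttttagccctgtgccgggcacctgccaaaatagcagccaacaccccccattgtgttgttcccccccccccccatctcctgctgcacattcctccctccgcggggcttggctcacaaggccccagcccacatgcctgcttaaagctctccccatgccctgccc
Nppa: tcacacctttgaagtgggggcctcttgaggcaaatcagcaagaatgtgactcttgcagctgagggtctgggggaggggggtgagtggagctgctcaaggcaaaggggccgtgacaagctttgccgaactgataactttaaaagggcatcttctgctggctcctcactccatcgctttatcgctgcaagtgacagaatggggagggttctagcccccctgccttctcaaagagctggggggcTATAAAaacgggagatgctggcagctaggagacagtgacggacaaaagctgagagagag

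The Actc1 window held a CArG box 47 bases before the start site, read on both strands, and a TATAAA beginning 34 bases after it. The Tnnt2 window held AGATAA on the opposite strand, 166 bases before the start site, and the Nppa window held TATAAA 9 bases before it. None of the 3 motifs matched in the Hbb-y window. Among all 32851 windows, 13.6% held TATAAA, 1.63% a CArG box and 11.2% AGATAA. Among the 14446 windows of the genes described here the shares were 7.53%, 1.39% and 6.74%. Among the 94 windows found for 73 of the 100 highest genes they were 10.6%, 7.45% and 6.38%. In the 59 windows of 45 genes of the thick filament, thin filament and Z disc the CArG box was in 10 windows (16.9%), AGATAA in 11 (18.6%) and TATAAA in 7 (11.9%). A match is a description of the letters and not of a bound site.

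All 20 genes of the cardiomyocyte list passed the count minimum, against 14217 of 21560 listed protein-coding genes. Their median level was 524.9 TPM against 12.7 TPM over all 16407 genes. Their summed level was 35013, 34249 and 27840 TPM in hearts 2, 3 and 5, which is 3.24% ± 0.39 of the TPM (SD, n = 3). Actc1 alone held a large part of it, and the sum without Actc1 was 19748 TPM.

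RNA was found for nearly every listed sarcomere gene. All 16 genes of the thick filament and M band were detected, summing to 25686 TPM, as were 19 of 20 thin filament genes, summing to 28658 TPM, and 18 of 19 Z disc genes, summing to 5359 TPM. The missing thin filament gene was Tnnc2, the fast skeletal troponin C, listed at 0 counts in all 3 hearts. Tnnt2 (cardiac troponin T) had 4547, 4314 and 3838 TPM, Tnnc1 (slow and cardiac troponin C) 2320, 2202 and 2530 TPM, and Tpm1 (alpha-tropomyosin) 2784, 2846 and 2474 TPM. On the CPM scale the highest heart exceeded the lowest by 1.03-fold, 1.34-fold and 1.06-fold, which is below the median of all genes (1.35-fold). Ttn, the titin gene, was at 72.3, 58.4 and 25.5 TPM, well below its partners, and at 14.4 TPM on average per longest transcript, which is 106824 bases long. Heart 5 was the lowest for Ttn by a wide margin.

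The ventricular marker list had a higher sum than the atrial list. The ventricular list summed to 16285, 16337 and 16968 TPM and the atrial list to 8643, 6883 and 8308 TPM, and the ranges of the 3 hearts did not overlap. Per exon union the mean sums lay closer together, at 10951 and 9255 TPM, and without Myl2 the ventricular mean was 6702 TPM. Both sums were dominated by myosin light chains and do not measure the RNA of a chamber. Pln, at a mean of 464.8 TPM, is in both the ventricular and the cardiomyocyte lists. The transcription factors of the lists were far lower. Irx4 and Hey2, which mark ventricular myocardium, averaged 39.5 and 52.7 TPM, and Nr2f1 and Nr2f2, of the atria, 29.4 and 23.0 TPM. Heart 3 was the lowest of the 3 hearts for 11 of the 13 atrial genes, against 25.4% of all genes. Nppa, the atrial natriuretic peptide, was at 437 TPM in heart 2 and at 139 TPM in both other hearts, so heart 2 stood 3.08-fold above the lowest heart on the CPM scale. Of its exon bases 61.5% overlap another listed gene. Nppb, the brain natriuretic peptide, went the other way with 234, 311 and 530 TPM.

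Related genes were compared within each heart, which removes the difference in scale between hearts. Of 40 pairs, 38 had the same direction in all 3 hearts. With 3 hearts the exact sign-flip permutation test cannot go below a two-sided p of 0.25, so no pair could pass a threshold, and 0.25 was the value of each pair whose direction was shared and whose ratio was finite. Only Nppa over Nppb and Hbb-bs over Hbb-bh1 differed in direction between hearts.

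Some pairs were far from equal. Actc1 exceeded Acta1, the skeletal alpha-actin, by 6.08, 6.16 and 6.50 log2 units, and Acta2, the smooth muscle actin, by 4.43, 4.33 and 4.31. Atp2a2, the cardiac calcium pump of the sarcoplasmic reticulum, exceeded the skeletal Atp2a1 by 8.96, 7.93 and 9.84 log2 units. Tnnt2 exceeded Tnnt1 by 3.23, 3.07 and 3.40, and Tpm1 exceeded Tpm2 by 4.35, 4.51 and 4.12. The slow skeletal troponin I gene Tnni1, which is the fetal form in the heart, exceeded the cardiac Tnni3 by 0.67, 0.88 and 0.65. Per longest transcript this last gap shrank to a mean of 0.15.

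The 2 cardiac myosin heavy chains depended on the length used. Myh6, the alpha chain, had 2426, 1750 and 911 TPM and Myh7, the beta chain, 1406, 1272 and 434 TPM, so that Myh7 over Myh6 was -0.79, -0.46 and -1.07 log2 units. The length behind the deposited value was 1554 bases for Myh6 and 4129 for Myh7, whereas their longest transcripts have 6113 and 6230 bases. Per longest transcript Myh7 exceeded Myh6 in all 3 hearts, with a mean log2 ratio of 0.61 ± 0.30 (SD, n = 3). Both genes lie next to each other on chromosome 14, Myh6 from 54941921 to 54966927 and Myh7 from 54970684 to 54994626, and both were lowest in heart 5. The same change of length reversed Erbb4 over Erbb3, and 19 of the 40 mean ratios moved by more than 1.5 times.

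**Figure D2:**
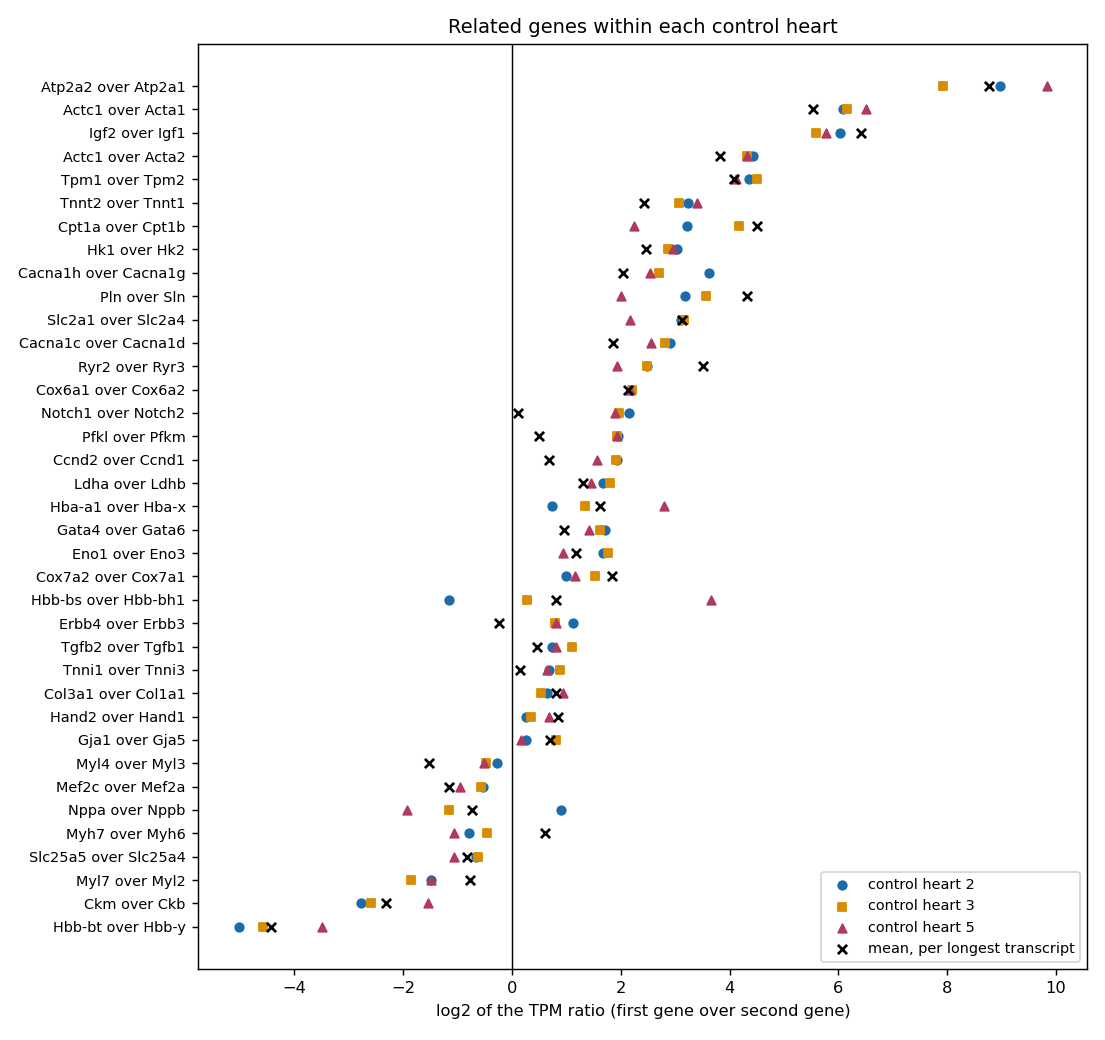
Log2 of the TPM ratio of 2 related genes (horizontal axis) for 37 pairs (vertical axis; 2 further pairs with a finite ratio are not shown), with 1 symbol per control heart and a cross for the mean per longest transcript. Most pairs keep to 1 side of 0 in all hearts, Nppa over Nppb and Hbb-bs over Hbb-bh1 cross it, and the cross for Myh7 over Myh6 lies on the other side of 0 from the hearts.

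The listed calcium handling genes were all detected. The 37 genes of the list summed to 5931 ± 777 TPM (SD, n = 3) with a median of 35.3 TPM. Atp2a2 was at 874, 738 and 436 TPM, its inhibitor Pln at 420, 495 and 480 TPM, and Ryr2, the calcium release channel, at 22.1, 19.3 and 8.25 TPM. Heart 5 was the lowest for 26 of the 37, against 41.7% of all genes. After the running median over transcript length (see the length trend) was taken off, the median deviation of the list in heart 5 was -0.01 log2 units. Calr, a calcium-binding chaperone of the endoplasmic reticulum that is prominent in the embryonic heart, was at 1081, 1033 and 622 TPM and above Casq2, the cardiac calsequestrin, at 142, 150 and 181 TPM.

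Ion channel genes were low. All 26 sodium, potassium and pacemaker channel genes were detected, with a median of 4.59 TPM. Kcnh2, a delayed rectifier potassium channel, was the highest of them at 128, 115 and 108 TPM. Hcn4, the main pacemaker channel, had 13.3, 12.0 and 8.35 TPM. The T-type calcium channel Cacna1h exceeded Cacna1g by 3.62, 2.70 and 2.53 log2 units. The sinus venosus and sinus node list, which includes Hcn4, summed to 328, 311 and 261 TPM. Its transcription factors Shox2, Tbx18 and Isl1 averaged 29.4, 33.3 and 5.69 TPM.

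Genes of both glycolysis and fatty acid oxidation were transcribed. The 25 glycolysis genes summed to 15878, 15814 and 13217 TPM and the 30 genes of fatty acid uptake and oxidation, 29 of them detected, to 3582 ± 81.3 TPM. Ldha exceeded Ldhb by 1.67, 1.80 and 1.45 log2 units, Slc2a1 exceeded the insulin-responsive glucose carrier Slc2a4 by 3.11, 3.16 and 2.17, and Hk1 exceeded Hk2 by 3.03, 2.87 and 2.96. Cpt1a, the liver form of the carnitine transferase that admits fatty acids to the mitochondrion, had 15.7 TPM on average and the muscle form Cpt1b 1.77 TPM. Fabp3, the heart fatty acid binding protein, had 502, 487 and 590 TPM. Gapdh was at 381, 305 and 198 TPM.

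All 36 genes of the cardiac transcription factor list were detected, with a summed level of 2029 ± 385 TPM and a median of 30.6 TPM. Gata4 had 239, 220 and 134 TPM and exceeded Gata6 by 1.71, 1.63 and 1.42 log2 units. Nkx2-5 had 209, 198 and 182 TPM, Tbx20 had 168, 154 and 83.7 TPM, and Tbx5 had 63.2, 53.0 and 42.4 TPM. Hand2 exceeded Hand1 by only 0.26, 0.35 and 0.68. Of the cell cycle list 37 of 38 genes were detected, and 1 of those 37 varied over 2-fold between hearts. This compares with 12.5% of all genes and 6.45% of genes with at least 50 counts in each heart. Heart 5 was the lowest for 24 of the 37, against 41.7% of all genes. Cdk1 was at 211, 213 and 178 TPM, Ccnd2 at 332, 330 and 182 TPM and Mki67 at 37.5, 37.6 and 15.7 TPM.

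Growth factor genes were led by Igf2, which exceeded Igf1 by 6.04, 5.60 and 5.78 log2 units. All 21 imprinted genes of the list were detected and summed to 1.77% ± 0.38 of the TPM (SD, n = 3). Mest had 2561, 2769 and 2003 TPM, and Grb10, an inhibitor of insulin receptor signalling, 1144, 1125 and 622 TPM. The 16 Notch pathway genes had a median of 13.8 TPM, close to that of all genes, and ran from 1.74 to 52.7 TPM. Notch1 exceeded Notch2 by 2.15, 1.96 and 1.89 log2 units, a gap that fell to a mean of 0.12 per longest transcript.

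Of the lists of other heart cells, fibroblast and smooth muscle genes had the highest sums. The fibroblast and epicardium-derived list summed to 5737, 5304 and 3599 TPM, smooth muscle and outflow tract to 2249, 2172 and 1704 TPM, and cushion and valve mesenchyme to 1178, 1170 and 913 TPM. Sparc, a collagen-binding matrix protein, had 1564, 1366 and 1099 TPM, and Col3a1 had 803, 797 and 479 TPM. Vim, an intermediate filament of mesenchymal and endothelial cells, had 1095, 1026 and 800 TPM. Since it is shared with endothelial cells, the fibroblast sum is not of fibroblasts alone. The median of that list was 85.5 TPM. Col3a1 exceeded Col1a1 by 0.64, 0.54 and 0.94 log2 units. Pdgfra, a receptor on cardiac fibroblast precursors, had 67.7, 76.8 and 36.3 TPM. Tcf21, a transcription factor of epicardium-derived fibroblasts, was at 61.8, 49.9 and 57.2 TPM. Myh11, the smooth muscle myosin heavy chain, was at 0.748, 0.793 and 2.33 TPM. The smooth muscle list had a median of 15.2 TPM, and its highest member, Acta2, averaged 614 TPM. In the study, smooth muscle actin staining coincided with the reporter of cardiomyocytes that had expressed Wt1, so this sum is not specific to smooth muscle.

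**Figure D3:**
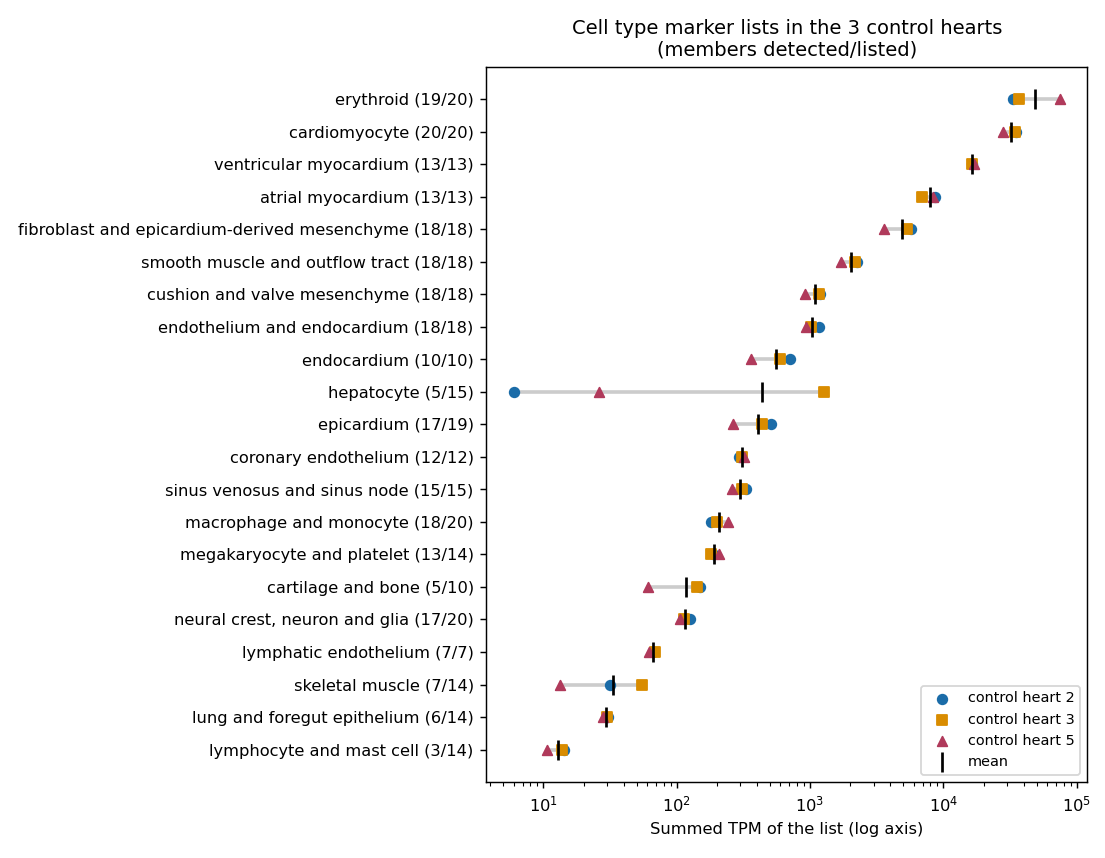
Summed TPM (horizontal log axis) of the 21 cell type marker lists (vertical axis), with 1 symbol per control heart, a vertical tick for the mean and a grey line over the range. The erythroid and cardiomyocyte lists sit highest, and the hepatocyte list spreads from 5.98 TPM in heart 2 to 1279 TPM in heart 3.

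Endothelial and endocardial genes were all detected, 18 of 18, and summed to 1164, 1016 and 931 TPM, a range that overlaps that of the cushion list. Pecam1 and Cdh5, adhesion molecules of endothelial junctions, had 98.9, 84.4 and 61.1 TPM and 79.5, 63.9 and 42.8 TPM. Cldn5, a tight junction gene, was at 8.0035, 8.85 and 20.3 TPM, and heart 5 was the highest for it. The endocardial list summed to 707, 599 and 362 TPM. Heart 5 was the lowest for all 10 of its genes, against 41.7% of all genes, but these genes are long, with a median longest transcript of 6234 bases, and the median deviation of the list in heart 5 moved from -0.45 to -0.18 log2 units once the length trend was taken off. The coronary endothelium list summed to 295, 310 and 320 TPM, with Fabp4 at 3.40, 4.64 and 21.8 TPM. The lymphatic list summed to 66.9, 69.2 and 61.8 TPM.

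Epicardial genes had a median of 14.2 TPM, close to the 12.7 TPM over all genes. Of 19 listed genes, 17 passed the count minimum, and the sum was 513, 435 and 266 TPM, 0.0405% ± 0.0126 of the TPM (SD, n = 3). Wt1, the zinc finger transcription factor studied in this series, lies on chromosome 2 from 105126529 to 105173616 and had 29.5, 23.8 and 12.5 TPM from 2251, 1891 and 879 counts. The study reports Wt1 also at low levels in a fraction of cardiomyocytes and in some endocardial cells, so this level is not of epicardium alone. Upk3b, a surface protein of mesothelium, had 79.6, 58.8 and 27.0 TPM, and Aldh1a2, the enzyme that makes retinoic acid in the epicardium, 38.2, 32.0 and 13.3 TPM. The 3 genes stood in the same order of hearts.

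Most of the list followed that order. Heart 2 was the highest for 13 of the 17 genes, against 31.7% of all genes, and heart 5 the lowest for 15 of them, against 41.7%. The median deviation in heart 5 was -0.47 log2 units and became -0.56 after the length trend was taken off. Over 2-fold spread was seen in 6 of the 17 genes (35.3%), against 12.5% of all genes. Tcf21 and Rspo1 varied by 1.33-fold and 1.19-fold between hearts. The mean sum without heart 5 was 474 TPM.

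The erythroid list had the largest mean sum, and most of its lead came from heart 5. In heart 2 the cardiomyocyte sum was larger, and without heart 5 the means were close, at 35233 TPM (erythroid) and 34631 TPM (cardiomyocyte). The erythroid list, with 20 symbols of which 19 were matched and all of these detected, summed to 33435, 37032 and 75077 TPM, which is 4.85% ± 2.31 of the TPM. Globins made up nearly all of it, and the 12 other erythroid genes summed to 568, 623 and 547 TPM. Slc4a1, the anion exchanger of the red cell membrane, had 180, 194 and 128 TPM, and Alas2, the first enzyme of erythroid haem synthesis, 78.4, 90.6 and 136 TPM.

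The globins differed between hearts in kind as well as in amount. The embryonic genes Hba-x, Hbb-y and Hbb-bh1 summed to 25164, 24695 and 40412 TPM. Of these only Hbb-y was highest in heart 5, and Hba-x and Hbb-bh1 were lowest there. The adult-type genes Hba-a1, Hba-a2, Hbb-bs and Hbb-bt summed to 7702, 11713 and 34119 TPM. The adult-type share of the 7 genes was 23.4%, 32.2% and 45.8% in hearts 2, 3 and 5. Among the beta-type genes alone it was 5.41%, 9.58% and 26.04%. Hbb-bs had 604, 1394 and 9894 TPM, whereas Hbb-bh1 stood in the opposite order with 1340, 1150 and 781 TPM. Hba-a1 and Hba-a2 are near-identical copies, so their split is uncertain and their sum of 6485, 9487 and 20954 TPM is the safer value.

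Markers of white blood cells summed to low levels. The macrophage list, with 18 of 20 genes detected, summed to 180, 201 and 242 TPM. Csf1r, the receptor that macrophages need to survive, had 7.02, 7.91 and 5.70 TPM, and Lyz2, a lysozyme, 45.8, 54.8 and 79.1 TPM. The megakaryocyte list summed to 188, 182 and 206 TPM, with Pf4 at 19.6, 20.2 and 28.6 TPM. Of the 14 lymphocyte and mast cell genes only 3 passed the minimum, and Cd3e and Ncr1 were listed at 0 counts in all hearts. Genes of neural crest, neurons and glia summed to 127, 114 and 105 TPM, but this list also holds Hand2, which the heart itself expresses at 48.9 TPM, and the median of its genes was 0.875 TPM. Sox10, a factor of neural crest and Schwann cells, had 0.497, 0.865 and 0.813 TPM, and Th, the enzyme of catecholamine synthesis, 0.543, 0.715 and 0.915 TPM.

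Markers of other tissues differed widely between hearts. Heart 3 had Afp at 546 TPM, from 20620 counts, and Alb at 474 TPM, from 17429 counts. In heart 5 they were at 10.1 and 8.86 TPM, and in heart 2 at 0.055 and 0 TPM, where a count of 0 for Alb allows up to 0.0849 TPM. Because of heart 2 neither gene passed the minimum in each heart. The 15 hepatocyte genes summed to 5.98, 1279 and 26.3 TPM, and the mean without heart 3 was 16.1 TPM. All 5 of the detected members were over 2-fold higher in heart 3 than in both others, against 0.75% of all genes.

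Skeletal muscle genes behaved likewise, with 5 of 7 detected members over 2-fold higher in heart 3. Myog, a factor of muscle differentiation, had 2.53, 19.1 and 1.94 TPM, and Myh3, the embryonic skeletal myosin, 0.301, 6.41 and 0.28 TPM. The list summed to 31.7, 55.0 and 13.4 TPM, and the mean without heart 3 was 22.5 TPM. Of 38 Hox genes 13 were detected, and 4 of these were over 2-fold higher in heart 3 than in both others, against 0.75% of all genes. Heart 2 was the lowest for 11 of the 13, against 5398 of all 16407 genes. Heart 5 was the highest for 8 of the 13 and heart 3 for 5, against 7102 and 4109 of all genes. Hoxa5 had 2.75, 14.8 and 8.06 TPM, and Hoxa13, Hoxb13 and Hoxd13, of the tail end of the body axis, were listed at 0 counts in all hearts. The 14 lung and foregut epithelium genes, 6 of them detected, summed to 30.63, 29.75 and 27.85 TPM. Most of this sum was the highest member, at 21.7 TPM on average. Without it the mean sum was 7.67 ± 6.27 TPM (SD, n = 3). Heart 5 was the highest for 5 of the 6, against 43.3% of all genes, and over 2-fold above both others for 2, against 2.05%. Of this list, Cdh1 was highest in heart 3, at 0.027, 0.932 and 0.619 TPM. In heart 5 Epcam, a marker of epithelium, was at 3.61 TPM against 0.125 and 0.443 TPM in hearts 2 and 3. The lung and foregut factor Nkx2-1 had 0.698 TPM in heart 5 and 0 counts in both others. The source of these RNAs was not tested. All results over the 3 hearts include hearts 3 and 5.

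The spread between hearts was moderate for most genes. The highest heart exceeded the lowest by a median of 1.35-fold on the CPM scale, and 2055 of the 16407 genes (12.5%) exceeded 2-fold. The common biological coefficient of variation estimated by edgeR was 0.224. In pairs of hearts 3.49% of the genes exceeded 2-fold without heart 5, 6.91% without heart 2 and 8.14% without heart 3. The coefficient was 0.143 without heart 5, 0.2497 without heart 2 and 0.256 without heart 3. Heart 5 was the highest for 43.3% and the lowest for 41.7% of the genes. Over 2-fold above both other hearts lay 0.317% of the genes in heart 2, 0.75% in heart 3 and 2.05% in heart 5, and over 2-fold below both lay 1.02%, 0.5% and 1.38%.

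Heart 5 differed by transcript length. In genes whose longest transcript is under 1 kb the median deviation of heart 5 from the mean of the 3 hearts was 0.32 log2 units, and in genes over 8 kb it was -0.40. Of the 748 genes over 8 kb, heart 5 was the lowest for 89.3%. Among the 13952 genes of at least 1 TPM with an annotated length, 8.49% exceeded 2-fold before and 5.74% after the running median over length was taken off. Fn1, the fibronectin gene, which had 447, 310 and 105 TPM, and Ttn are among the long genes. The cause of the difference was not tested.

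**Figure D4:**
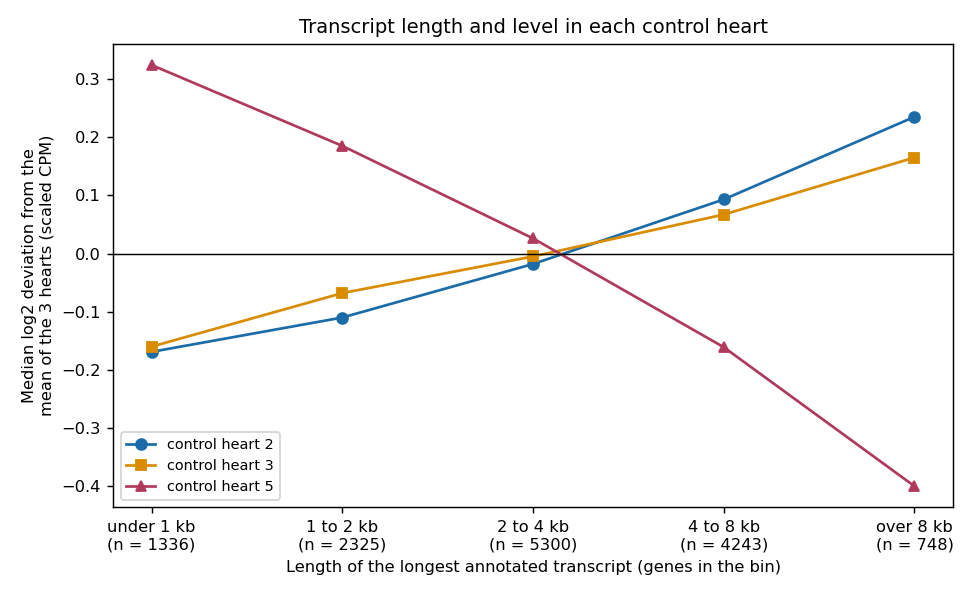
Median log2 deviation of each control heart from the mean of the 3 hearts on the CPM scale (vertical axis) for genes in 5 classes of longest transcript length (horizontal axis, with the number of genes), with 1 line per heart. Heart 5 falls from 0.32 in the shortest class to -0.40 in the longest. Because the 3 deviations of a gene sum to 0, the other lines rise as it falls.

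Once the length trend was taken off, the medians of the cardiomyocyte, ventricular, atrial, thick filament, thin filament, Z disc and calcium handling lists lay between -0.24 and 0.14 log2 units in every heart. Deviations beyond this range included those of the hepatocyte and skeletal muscle lists, at 3.32 and 1.54 log2 units in heart 3, and of the epicardial list in heart 5. The ribosomal protein genes, of which 76 of 82 detected were highest in heart 5, had a median deviation of 0.45 in heart 5 before and 0.22 after the length trend was taken off. For the globin list these values were 0.67 and 0.41.

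**Figure D5:**
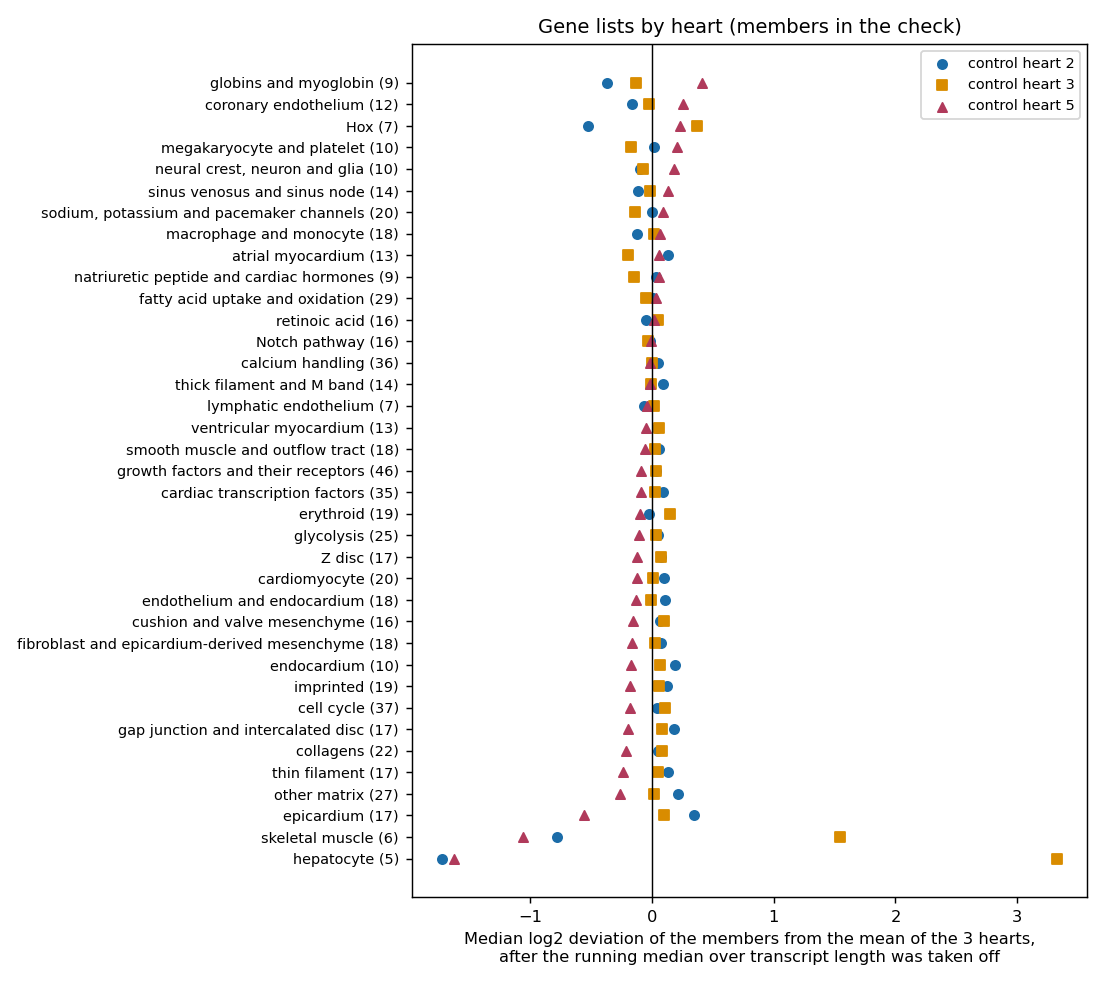
Median log2 deviation of the members of each gene list from the mean of the 3 hearts after the running median over transcript length was taken off (horizontal axis), for lists with at least 5 members in the check (vertical axis), with 1 symbol per control heart. Heart 3 lies at 3.32 for the hepatocyte list and heart 5 at -0.56 for the epicardium.

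The 20 genes with the widest spread among those of at least 5 TPM fell into few kinds. Liver genes came first: Apoa1, an apolipoprotein, had 0.342, 106 and 1.95 TPM, and Itih2, Serpinf2, Rbp4, Apoa2, Ttr and Ahsg were likewise highest in heart 3. Ribosomal genes and copies of them were the second kind. Rps2 had 46.4, 1261 and 3138 TPM, and its processed pseudogene Rps2-ps10 had 1087, 663 and 128 TPM, in the opposite order. Their sum of 1133, 1924 and 3265 TPM varied less than either, and the split of reads between such near-identical copies is uncertain. Rpl26 was at 588, 683 and 44.4 TPM. The others included the globin gene Hbb-bs, the chemokine gene Ccl21a at 0.526, 2.22 and 13.3 TPM, Myog and Fabp4.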

How the data were processed

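RNA of 1 whole heart went into each paired-end Illumina library, made with a TruSeq kit. Trimming, STAR alignment to the mouse build mm10 and featureCounts on uniquely mapped reads with mouse annotation release M19 are the steps that the study's methods give, while the labels name HTSeq and DESeq2, and the strand setting is not given in the sources used here. The authors deposited the count of each gene and its FPKM. Each deposited FPKM equalled the count over 1 fixed length and the total, and the length was within 2 bases of the mean annotated transcript for 69.5% of the 16364 detected genes matched to the annotation. FPKM were rescaled here to TPM. Levels, positions and types used GENCODE M21 (GRCm38), matched for 46488 of 46983 genes. Symbols listed more than once (74) were taken at the row with the highest level.

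A gene was detected with at least 10 counts in each control heart. Scaling and dispersion used edgeR 4.0.16 (R 4.3.3) with TMM, checked on simulated data, and DESeq2 1.42.0 size factors were an alternative. The length trend was a running median over 501 genes. Named are members of 41 gene lists (3 of 681 symbols unmatched) and 40 pairs, the 25 highest genes and the 20 genes with the widest spread of at least 5 TPM, and any other was chosen after its values were seen. Gene lists and members were chosen with earlier results of these data known. A count of 0 allows up to 3 counts. Such limits cover only counting error, and no molecular identifiers are named in the methods. The TPM of genes per longest transcript or exon union and the length correction were added after seeing the data. A few listed genes and pairs are not reported here.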

Additional observations from a re-analysis of the deposited data

How the results depend on the processing

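The number of detected genes stayed within 1.5 times of 16407 under every count or TPM minimum tried, and lay between 16660 and 16796 with 1 heart left out. Counted as reads and not per length, the 10, 100 and 1000 highest genes held 8.04%, 21.97% and 51.6%, and per longest transcript 17.0%, 36.6% and 67.2%. With 1 heart left out they held 11.8% to 13.53%, 29.6% to 32.8% and 61.9% to 64.9%. The cardiomyocyte sum was 24160 in deposited FPKM, 19748 TPM without Actc1 and 27923 TPM per exon union, and 31044 to 34631 TPM with 1 heart left out. The endothelial and endocardial sum was 775 in FPKM and 899 TPM without its highest member, and 974 to 1090 TPM with 1 heart left out. The epicardial sum was 549 TPM per exon union and 350 to 474 TPM with 1 heart left out. The erythroid sum was 23043 TPM without Hbb-y, 72254 TPM per longest transcript and 86748 TPM per exon union, and 35233 to 56055 TPM with 1 heart left out.

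The 38 pairs with 1 direction in all hearts became 36 from counts and 34 per exon union, and 38 to 40 when a heart was left out, where fewer hearts have to share it. Mean log2 ratios that changed sign were Myh7 over Myh6 (0.64 from counts, 0.61 per longest transcript and 0.28 per exon union), Myl7 over Myl2 (0.36 per exon union), Myl4 over Myl3 (0.012 from counts), Gja1 over Gja5, Pfkl over Pfkm and Eno1 over Eno3 (-0.051, -0.134 and -0.071 per exon union), Notch1 over Notch2 (-0.03 from counts and -0.43 per exon union), Erbb4 over Erbb3 (-0.25 per longest transcript and -0.28 per exon union) and Hbb-bs over Hbb-bh1 (-0.44 without heart 5, against 1.97 without heart 2). The share of genes over 2-fold was 6.45% at a minimum of 50 counts, 24.6% at 1 count, 5.74% after the length correction among genes of at least 1 TPM (8.49% before it) and 3.49% to 8.14% with 1 heart left out, a comparison of fewer hearts. The common coefficient of variation was 0.143 to 0.256 with 1 heart left out. No paired comparison of control and mutant hearts was made, because only the controls were described. The ratio of Tnnc1 to Tnnc2 has no value, as Tnnc2 is at 0. The small number of hearts, unique mapping and lengths averaged over transcript models limit all levels.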
